A study of Mus musculus with 14 samples.

Results

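The 10 genes described here are the 6 enzymes that methylate lysine 4 of histone H3 in COMPASS-type complexes (*Kmt2a*, *Kmt2b*, *Kmt2c*, *Kmt2d*, *Setd1a*, and *Setd1b*) and the 4 core subunits that all 6 share (*Wdr5*, *Ash2l*, *Rbbp5*, and *Dpy30*), taken by name from 45218 genes with a position and strand, 21441 of them protein coding. The measurement is the H3K4me3 that these genes carry at their own starts. CUT&Tag (cleavage under targets and tagmentation), in which an antibody guides a transposase to chromatin, was done with an H3K4me3 antibody on LSK cells (Lin-Sca1+cKit+, the marrow fraction with hematopoietic stem and progenitor cells) sorted from tibias and femurs of male C57BL/6J mice. The mice were bought at 3 to 4 weeks of age and fed for 16 to 20 weeks either a high-fat diet (HFD, 60% of kcal from fat) or a low-fat diet (LFD, 10% of kcal from fat), with no transgene or other agent in either group. There were 3 HFD-LSK and 4 LFD-LSK libraries, each with its own list of peaks, and the 7 IgG libraries made beside them were not analyzed here. The labels do not give the animals or the cohort behind each library, so p-values measure only the spread between these libraries. The mark was assayed over many cells at once, so fewer cells with the mark and less of the mark per cell cannot be told apart.

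The COMPASS family adds methyl groups to H3K4, and the trimethylated form sits around the starts of active and poised genes. Each complex has a single SET-domain enzyme and the same 4-protein module, in which WDR5 docks the enzyme, RBBP5 and ASH2L switch on catalysis, and DPY30 binds ASH2L. KMT2A and KMT2B work with menin, KMT2C and KMT2D mainly place monomethylation at enhancers, and SETD1A and SETD1B place much of the trimethylation at promoters. In blood, KMT2A is known for sustaining stem cells and for its rearrangements in leukemia.

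The genes' starts differ in base composition, and their sequences are shown because H3K4me3 is known to favor CpG-rich starts. RefSeq promoters of 300 bases (250 before and 50 after a transcript start, build GRCm38.p6) matched 7 of the 10 genes, with 10 starts in all. *Dpy30* gives the contrast inside 1 gene. The window at its annotated 5′ end (chr17:74323895-74324194, minus strand) holds 1 CpG and lay within 1 kb of a peak in 0 of 7 lists, whereas the window at its innermost start, 7733 bp downstream (chr17:74316162-74316461, minus strand), holds 39 CpGs and was marked in 7 of 7. *Kmt2c* (chr5:25498734-25499033, minus strand) has the most CpGs of the set, 56, and *Rbbp5* (chr1:132477117-132477416, plus strand) the fewest of the marked starts, 16. Each is written 5′ to 3′ with CpG in capitals.
Dpy30 outer start: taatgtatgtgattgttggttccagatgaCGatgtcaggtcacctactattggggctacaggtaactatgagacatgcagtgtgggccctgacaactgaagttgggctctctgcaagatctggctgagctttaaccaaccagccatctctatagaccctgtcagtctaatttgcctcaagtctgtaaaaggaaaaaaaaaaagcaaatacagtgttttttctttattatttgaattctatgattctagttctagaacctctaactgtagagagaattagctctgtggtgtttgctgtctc
Dpy30 inner start: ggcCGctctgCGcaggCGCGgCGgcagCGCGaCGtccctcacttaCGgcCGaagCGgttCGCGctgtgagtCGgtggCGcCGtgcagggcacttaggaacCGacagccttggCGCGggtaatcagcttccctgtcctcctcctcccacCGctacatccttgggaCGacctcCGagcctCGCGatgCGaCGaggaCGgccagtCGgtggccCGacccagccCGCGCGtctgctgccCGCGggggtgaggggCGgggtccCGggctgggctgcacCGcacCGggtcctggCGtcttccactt
Kmt2c start: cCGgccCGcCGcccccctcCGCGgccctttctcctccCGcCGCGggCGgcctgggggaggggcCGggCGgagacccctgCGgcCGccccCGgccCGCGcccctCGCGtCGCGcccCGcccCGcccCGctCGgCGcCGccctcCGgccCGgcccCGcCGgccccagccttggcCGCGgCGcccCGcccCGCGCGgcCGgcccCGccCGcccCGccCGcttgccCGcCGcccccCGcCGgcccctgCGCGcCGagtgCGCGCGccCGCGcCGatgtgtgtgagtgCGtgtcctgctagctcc
Rbbp5 start: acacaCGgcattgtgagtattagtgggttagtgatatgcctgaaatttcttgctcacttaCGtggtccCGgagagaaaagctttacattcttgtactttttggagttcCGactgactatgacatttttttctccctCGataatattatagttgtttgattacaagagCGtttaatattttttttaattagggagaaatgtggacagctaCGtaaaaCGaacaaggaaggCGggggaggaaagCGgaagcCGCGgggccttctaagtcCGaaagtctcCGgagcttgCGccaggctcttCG
The 32851 promoters of the same length in the table had a median of 7 CpGs, the 5182 marked in all 7 lists a median of 25.5, and the 19831 marked in none a median of 3. Between the extremes shown, CpG counts were 36 for *Kmt2a*, 35 for *Setd1a*, 27 for *Kmt2d*, and 22 for *Wdr5*. In all, 0.195% of promoters hold at least as many CpGs as *Kmt2c*, and 94.6% at least as many as the outer *Dpy30* start.

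**Figure D1:**
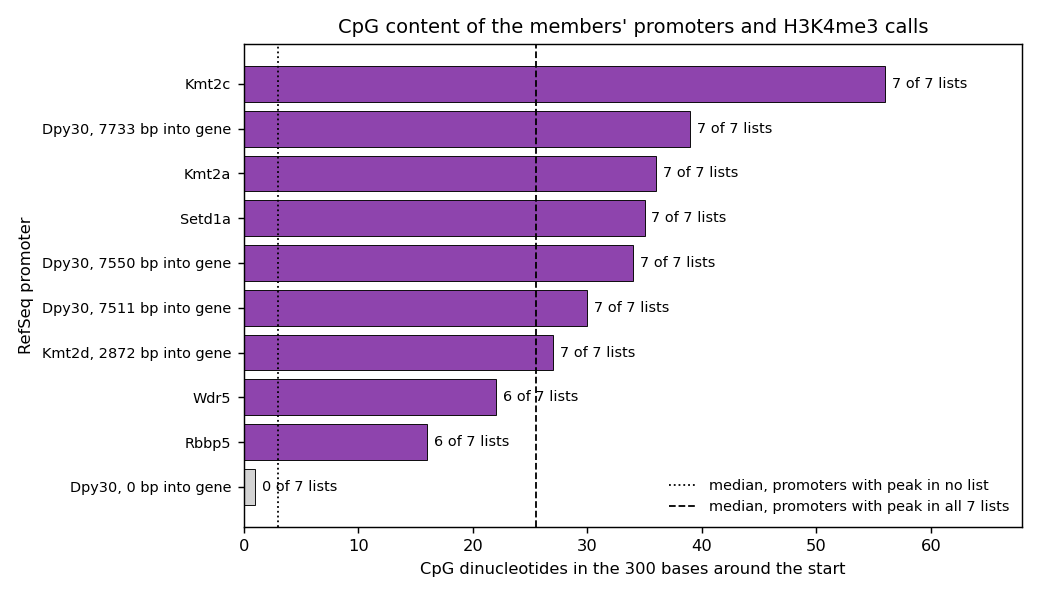
CpG dinucleotides (x axis, count in 300 bases) in the 10 RefSeq promoters of 7 genes (y axis), with the number of lists that have a peak within 1 kb beside each bar. The 1 unmarked start, the outer start of Dpy30 with 1 CpG, is the gray bar, and dashed and dotted lines mark the medians of 25.5 and 3 for promoters marked in all 7 lists and in none.

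Letters of common promoter motifs were searched on both strands of these windows. The GC box (GGGCGG) was found at *Kmt2a*, *Kmt2c*, *Kmt2d*, *Wdr5*, and the inner *Dpy30* start, and in 35.7% of all promoters. The ETS core (CCGGAA, in 14.9% of promoters) was found at *Kmt2a* alone among these 10 windows, the CCAAT box (CCAAT, 37.4%) at the outer *Dpy30* start alone, and the TATA box (TATAAA, 13.6%) at none. Among promoters marked in all 7 lists the shares were 73.2%, 31.5%, 36.0%, and 4.36%, in the same order of motifs. A match describes letters only.

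Read strictly, as a peak within 1 kb of the gene's annotated 5′ end, 5 of the 10 genes were called in all 7 lists (*Kmt2a*, *Kmt2b*, *Kmt2c*, *Setd1a*, and *Setd1b*), 2 in 6 lists (*Wdr5* and *Rbbp5*), and 3 in none (*Kmt2d*, *Ash2l*, and *Dpy30*). Of all coding genes, 20.2% were called in all 7 lists by this rule, and 22.3% when any RefSeq transcript start counted too. The 3 genes without a call each had a peak farther inside the gene, as the map of peaks around the starts shows. For *Dpy30* it covered the inner RefSeq starts, 7511 to 7733 bp downstream. For *Kmt2d* it began 1181 to 1766 bp downstream, with summits at 1780 to 2120 bp, and reached within 1 kb of the RefSeq transcript start at 2872 bp. In LFD-LSK replicates 1 and 4 it ended before that start, at 2319 and 2760 bp. In GRCm39 the canonical *Kmt2d* transcript starts at the gene's 5′ end, with 2 of 4 coding transcripts starting within 1 kb of it. For *Ash2l*, with no start in the promoter table, its summits lay 6725 to 7089 bp downstream, and in the separate GRCm39 annotation the canonical transcript starts 6934 bp inside the gene, with 23 of 40 coding transcripts starting within 1 kb of it. At these marked starts, a choice made after the data were seen, 7 of the 10 genes were called in all 7 lists and 3 in 6. All 6 enzymes were called in 7 of 7, against 1 of the 4 core subunits, *Dpy30*. The missed calls were *Wdr5* and *Ash2l* in LFD-LSK replicate 4, the shortest list, and *Rbbp5* in HFD-LSK replicate 3.

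**Figure D2:**
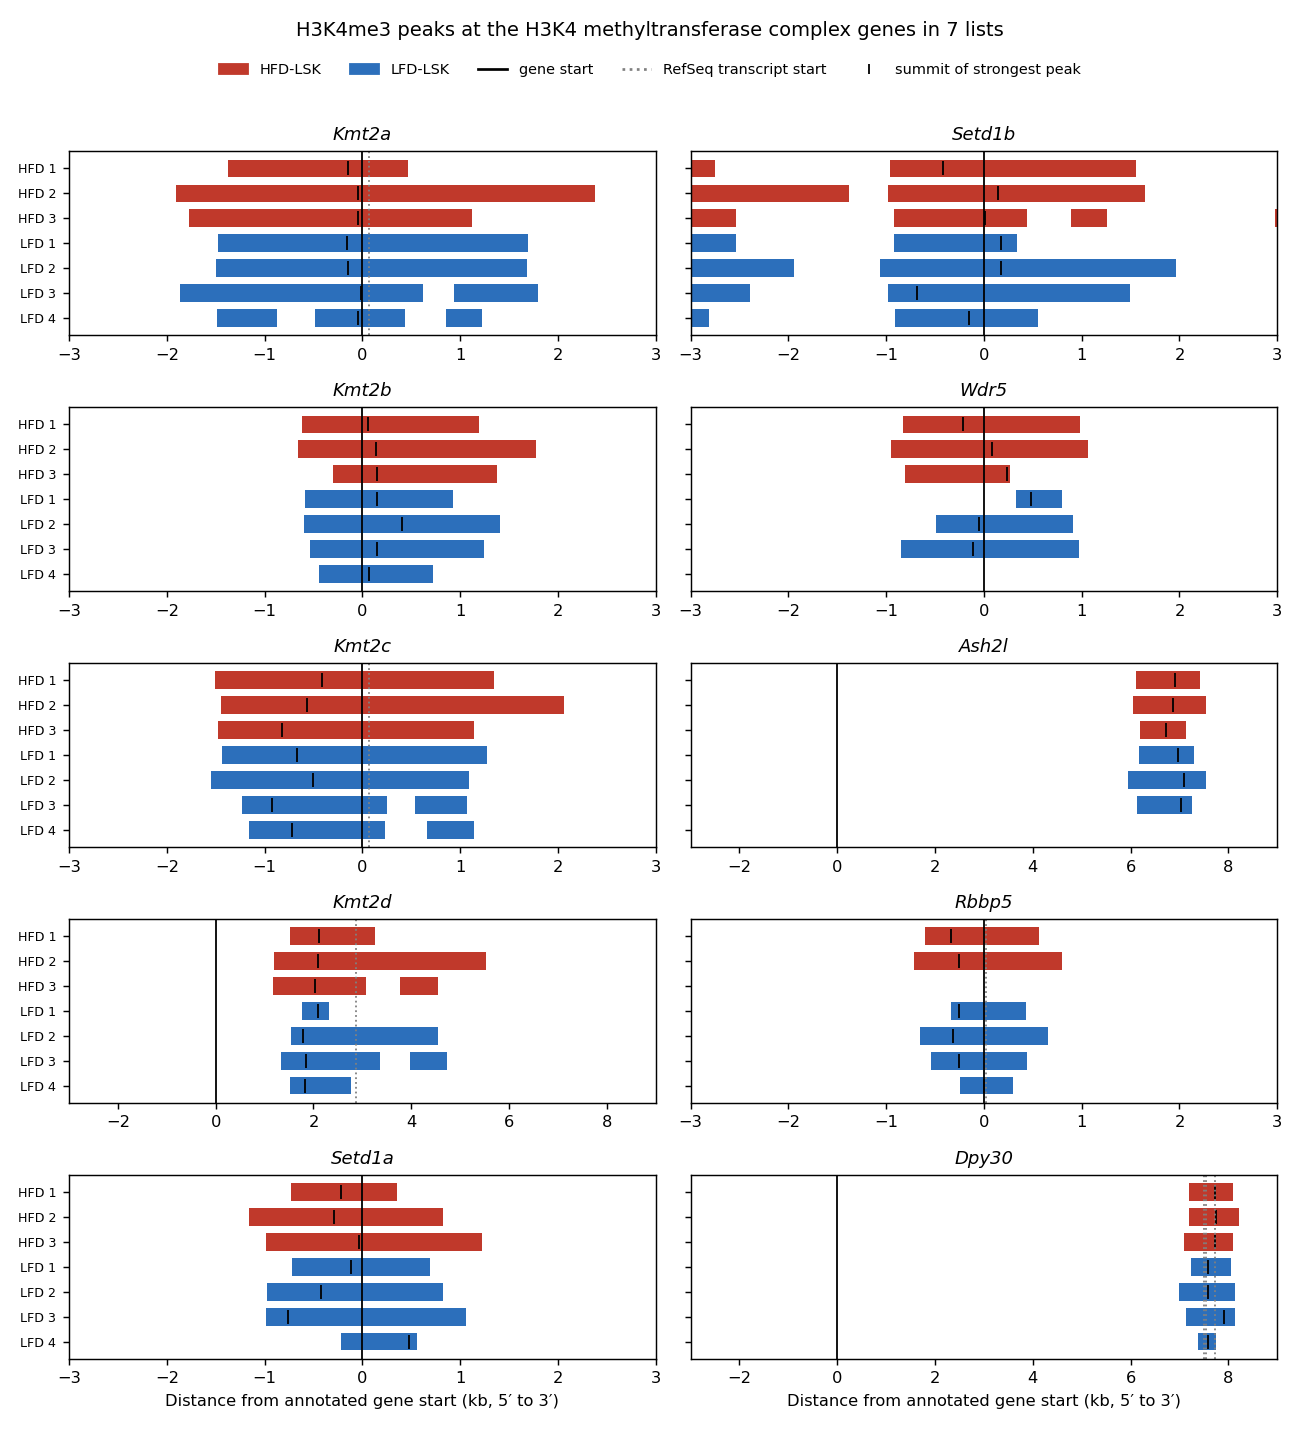
Peaks (bars) around each of the 10 genes in the 7 lists (y axis, HFD-LSK 1 to 3 and LFD-LSK 1 to 4), against distance from the annotated gene start in kb, read 5′ to 3′ (x axis, wider for Kmt2d, Ash2l, and Dpy30). Solid lines are gene starts, dotted lines RefSeq transcript starts and ticks summits. Peaks of Kmt2d, Ash2l, and Dpy30 begin 1181 bp or more inside the gene, and the upstream peaks drawn at Setd1b lie outside the 1 kb window and were not counted.

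The lists held 6921 to 13094 peaks with mean widths of 605 to 1333 bp, LFD-LSK replicates 4 and 1 being the shortest. The fewest fragments at any called summit were 4 to 21, depending on the library, as recovered from the deposited values. Calls rest on p against a local background, so no single fragment count decides them. A gene missing from a list was not called there, which does not show that it lacks the mark. Markers were checked in the same way at any start. Of 8 LSK and progenitor genes, *Kit*, *Cd34*, *Mecom*, *Meis1*, and *Gata2* were called in all 7 lists, *Flt3* in 6, *Hlf* in 5, and *Ly6a*, which encodes the Sca1 used in the sort, in 0. The lineage genes *Itgam*, *Ly6g*, *Cd3e*, *Cd4*, *Cd8a*, *Cd5*, and *Il7r* were called in none, and 0 of 4 genes of other tissues (*Alb*, *Ins2*, *Myh6*, and *Neurod1*) were called.

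For each gene the strongest peak at its start was placed in its own list by fold enrichment, the height of the summit over the local background. A fold percentile of 0 is the strongest peak of the list and 100 the weakest, and the median for the 5035 gene starts called in all 7 lists was 28.7. Width is the summed length of the peaks at the start, with a median of 1092 bp for the same starts, and a width percentile ranks it among the starts called in that list, 0 being the widest. Values for a diet follow its replicate numbers, and gene positions are RefSeq's on GRCm38.p6.

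*Kmt2a* (gene 214162, chromosome 9, 44803355 to 44881352, minus strand) encodes the KMT2A (MLL1) enzyme. Its fold percentiles were 0.544, 11.6, and 15.9 in HFD-LSK and 0.148, 15.0, 1.80, and 7.63 in LFD-LSK. In every list the gene lay in the strongest 16%, and in LFD-LSK replicate 1 it ranked 11 among 7447 peaks. The marked width was 1836, 4284, and 2894 bp in HFD-LSK and 3171, 3176, 3344, and 1899 bp in LFD-LSK, the largest median width of the 10 genes at 3171 bp. The domain was a single peak in 5 lists, 2 peaks in LFD-LSK replicate 3, and 3 in LFD-LSK replicate 4. The median width percentile of 0.688 places it among the widest domains.

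*Kmt2b* (gene 75410, chromosome 7, 30568855 to 30589056, minus strand) encodes KMT2B (MLL2), the closest relative of KMT2A. Fold percentiles were 1.50, 1.36, and 31.1 in HFD-LSK and 12.6, 33.9, 47.7, and 3.08 in LFD-LSK. The gene was near the top of 3 lists and near the middle of others, with both diets on both sides. Its widths of 1813, 2435, and 1674 bp in HFD-LSK and 1515, 2003, 1781, and 1161 bp in LFD-LSK kept almost the same place in every list, from a width percentile of 8.40 to 10.5. The start of *Mir3569* lies 324 bp upstream and shares this peak.

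*Kmt2c* (gene 231051, chromosome 5, 25271795 to 25498855, minus strand) encodes KMT2C (MLL3) and had the strongest median signal of the set, a fold percentile of 2.42. By library it was 1.74, 0.745, and 3.05 in HFD-LSK and 2.42, 1.60, 53.2, and 6.36 in LFD-LSK. LFD-LSK replicate 3 stood apart, and the other 6 libraries of both diets overlapped. The widths were 2854, 3505, and 2626 bp in HFD-LSK and 2709, 2641, 2009, and 1874 bp in LFD-LSK, with the domain broken into 2 peaks in LFD-LSK replicates 3 and 4. The summit lay 416 to 923 bp upstream of the start, and *4831440E17Rik* starts 942 bp upstream, so the summit cannot be given to 1 of the 2 genes.

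*Kmt2d* (gene 381022, chromosome 15, 98831669 to 98874077, minus strand) encodes KMT2D (MLL4), the partner of KMT2C in enhancer monomethylation. At its RefSeq transcript start the fold percentiles were 17.1, 45.0, and 23.8 in HFD-LSK and 38.9, 38.9, 38.3, and 38.1 in LFD-LSK. The 4 LFD-LSK libraries lay within 1 percentile point of each other, with HFD-LSK on either side. Widths were 1737, 4328, and 2673 bp in HFD-LSK and 554, 3021, 2029, and 1246 bp in LFD-LSK, so the narrowest LFD-LSK domain, in replicate 1, was far under the rest of the gene's values.

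*Setd1a* (gene 233904, chromosome 7, 127777389 to 127800122, plus strand) encodes an enzyme of the SET1 complexes. Its fold percentiles spread from 5.10 to 49.9, at 34.2, 8.71, and 49.9 in HFD-LSK and 19.7, 41.9, 5.10, and 41.5 in LFD-LSK. The strongest and second strongest values came from different diets, and the groups overlapped. The widths were 1076, 1990, and 2214 bp in HFD-LSK and 1405, 1798, 2045, and 776 bp in LFD-LSK.

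*Setd1b* (gene 208043, chromosome 5, 123142040 to 123168630, plus strand) encodes the other SET1 enzyme. It combined a wide domain with a modest summit. The widths were 2525, 2632, and 1735 bp in HFD-LSK and 1262, 3023, 2469, and 1466 bp in LFD-LSK, and the median width percentile was 3.33. The fold percentiles were 44.1, 89.3, and 26.8 in HFD-LSK and 74.5, 44.2, 29.0, and 73.1 in LFD-LSK, the weakest median (44.2) of the 6 enzymes. *Rhof* starts 232 bp upstream on this domain.

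*Wdr5* (gene 140858, chromosome 2, 27515147 to 27536535, plus strand) encodes the subunit that docks the enzymes. Its fold percentiles were 52.9, 45.0, and 67.6 in HFD-LSK and 50.8, 29.7, and 27.5 in LFD-LSK replicates 1 to 3. All but that of LFD-LSK replicate 3 were weaker than the median start of 28.7. Widths were 1808, 2007, and 1075 bp in HFD-LSK and 465, 1404, and 1818 bp in LFD-LSK replicates 1 to 3, where the peak of LFD-LSK replicate 1 began 330 bp inside the gene and those of the other 5 lists spanned the start.

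*Ash2l* (gene 23808, chromosome 8, 25816000 to 25847694, minus strand) encodes the subunit that, with RBBP5, activates the SET domain. Its gene-body peak had fold percentiles of 39.9, 27.4, and 15.0 in HFD-LSK and 75.7, 8.33, and 76.1 in LFD-LSK replicates 1 to 3, so LFD-LSK held both the strongest and the weakest values. Widths ran from 948 to 1607 bp. The 5′ end itself, with *Kcnu1* starting 933 bp away, had no peak in any list.

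*Rbbp5* (gene 213464, chromosome 1, 132477348 to 132505665, plus strand) encodes the partner of ASH2L and had the weakest median signal of the 10 genes, a fold percentile of 61.0. HFD-LSK replicates 1 and 2 had 69.8 and 52.2, and LFD-LSK had 93.0, 44.2, 46.3, and 84.7. Its widths were 1160 and 1516 bp in HFD-LSK and 761, 1312, 977, and 544 bp in LFD-LSK. The start of *6030442K20Rik* lies 284 bp upstream. This is also the gene with the fewest CpGs among the marked windows shown above.

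*Dpy30* (gene 66310, chromosome 17, 74299474 to 74323944, minus strand) encodes the small protein that binds ASH2L, and its inner start had a strong and narrow peak. The fold percentiles were 15.1, 15.5, and 5.09 in HFD-LSK and 13.9, 11.5, 3.19, and 15.5 in LFD-LSK, the whole range being stronger than the median start. Widths were 899, 1010, and 998 bp in HFD-LSK and 823, 1136, 1016, and 384 bp in LFD-LSK. The median width of 998 bp was the smallest of the set.

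**Figure D3:**
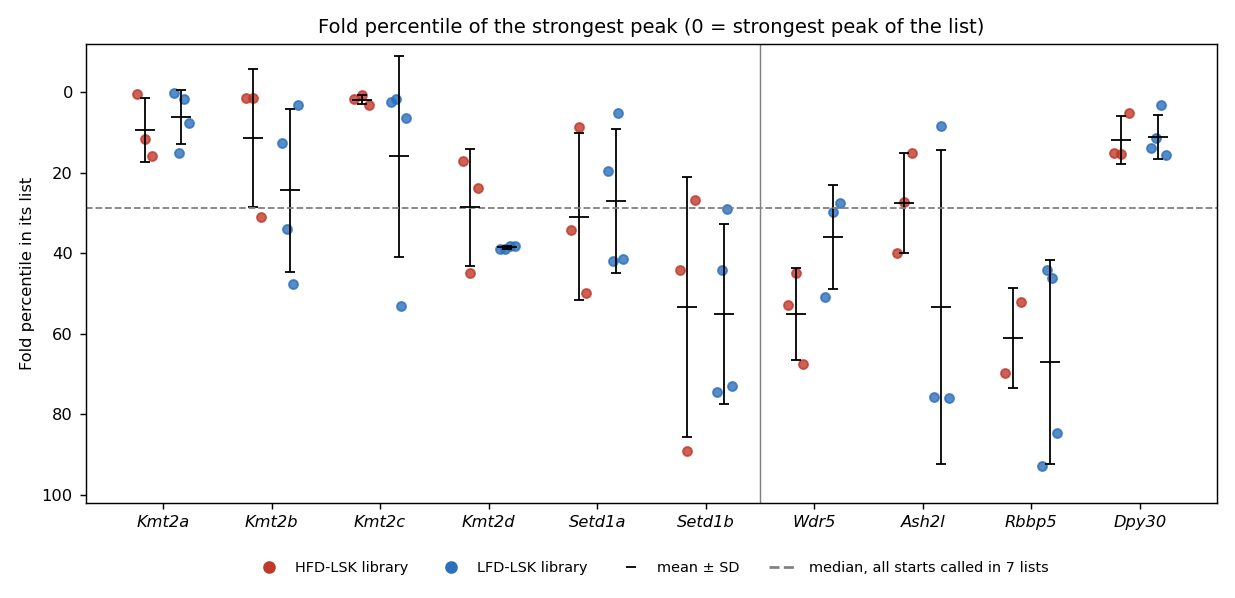
Fold percentile of the strongest peak at each gene's marked start (y axis, inverted, 0 is the strongest peak of a list) for the 6 enzymes and the 4 core subunits, with a point per library and the mean ± SD per diet. HFD-LSK and LFD-LSK points overlap at every gene, and Kmt2c, Kmt2a, Kmt2b, and Dpy30 have medians of 2.42 to 13.9, above the dashed line for all starts (28.7).

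Ordered by median fold percentile the genes ran *Kmt2c* (2.42), *Kmt2a* (7.63), *Kmt2b* (12.6), *Dpy30* (13.9), *Ash2l* (33.6), *Setd1a* (34.2), *Kmt2d* (38.3), *Setd1b* (44.2), *Wdr5* (47.9), and *Rbbp5* (61.0). The medians of *Ash2l*, *Wdr5*, and *Rbbp5* cover only the 6 lists with a call, so the list without a call does not weaken them. No neighboring pair in this order passed 0.05 (exact sign-flip permutation over the lists with both genes, two-sided, 9 pairs, lowest Benjamini-Hochberg adjusted p = 0.234, for *Dpy30* and *Ash2l*, *Kmt2d* and *Setd1b*, and *Wdr5* and *Rbbp5*). Such pairs share their libraries and were picked from an order of the same values. With 5 to 7 lists the smallest unadjusted p was 0.0156 to 0.0625. Adjusted over 9 pairs, no single pair could pass 0.05 on its own even at that p, so the order of neighbors is not settled. *Rbbp5* was weaker than *Wdr5* in 5 of 5 lists, by a mean of 19.9 points, at the smallest p that 5 lists allow (exact permutation p = 0.0625). That pair could not pass even before adjustment. Ordered by median width they ran *Kmt2a* (3171 bp), *Kmt2c* (2641 bp), *Setd1b* (2469 bp), *Kmt2d* (2029 bp), *Setd1a* (1798 bp), *Kmt2b* (1781 bp), *Wdr5* (1606 bp), *Ash2l* (1218 bp), *Rbbp5* (1068.5 bp), and *Dpy30* (998 bp), and again no neighboring pair passed (same permutation, lowest adjusted p = 0.281).

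Width, but not summit strength, put the enzymes on one side and the core subunits on the other. The 6 enzymes' median widths of 1781 to 3171 bp all exceeded those of the 4 core subunits, 998 to 1606 bp. Within each of the 7 lists the median width over the enzymes (1356 to 3069 bp) was larger than that over the core subunits called there (464 to 1505 bp). The enzymes' median width percentiles ran from 0.688 to 13.5, against 24.2 to 47.4 for the core subunits and a median of 35.3 for all starts. By fold percentile the median over the enzymes was the stronger in 5 of 7 lists and the weaker in 2. These counts describe 10 chosen genes and were not tested. Wide domains were not particular to these enzymes. Of the 7 other SET-domain enzymes described below, the 5 called in all 7 lists had a median width of 1990 bp. *Dpy30* and *Setd1b* show how the 2 measures separate, the one strong and narrow and the other weak and wide.

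**Figure D4:**
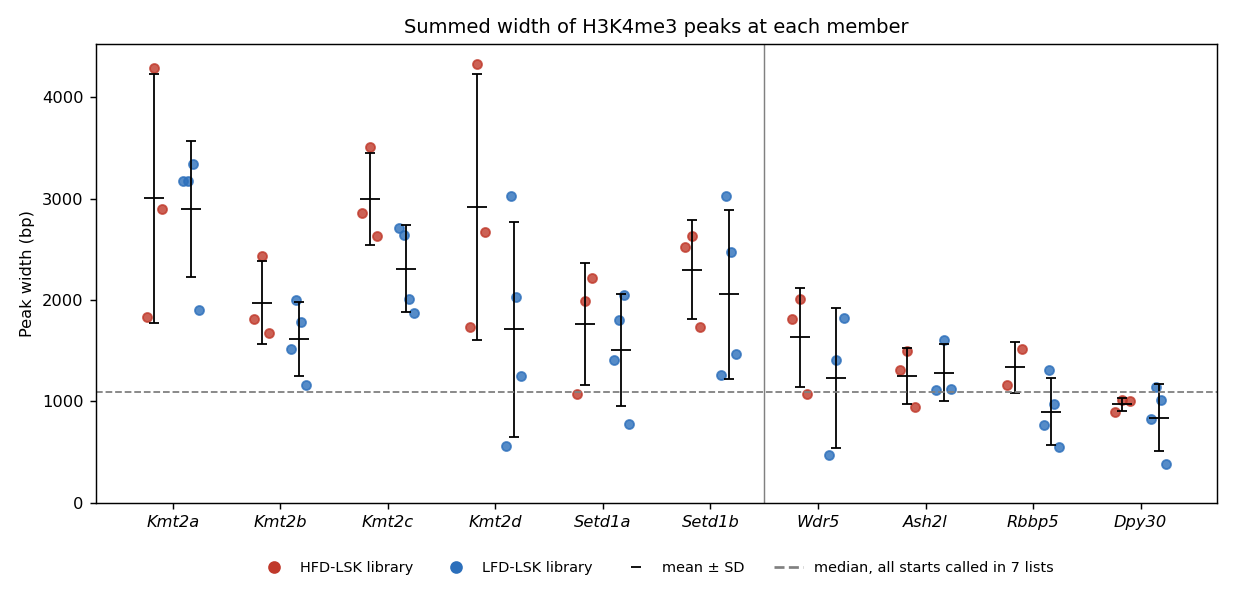
Summed width in bp of the H3K4me3 peaks at each gene's marked start (y axis from 0) for the 6 enzymes and the 4 core subunits, with a point per library and the mean ± SD per diet. The enzymes' medians of 1781 to 3171 bp lie above the core subunits' medians of 998 to 1606 bp, and the dashed line is the median of all starts, 1092 bp.

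The diets were compared to ask whether obesity shifts the mark at the genes that write it. Fold percentile and width percentile are ranks within a list, so a change shared by all starts cannot be seen in them. No gene's calls passed Fisher's exact test between HFD-LSK and LFD-LSK. At the marked starts each gene was called in 6 or 7 of the 7 lists. With such totals the test could not pass 0.05 for any gene, so it says nothing about diet. *Wdr5* and *Ash2l*, both missing from LFD-LSK replicate 4, had 3 calls in the 3 HFD-LSK lists and 3 in the 4 LFD-LSK lists (Fisher's exact test, p = 1), and *Rbbp5* had 2 and 4 (Fisher's exact test, p = 0.429).

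In fold percentile the HFD-LSK and LFD-LSK values overlapped at all 10 genes. In the exact permutation test of library labels (two-sided, 35 assignments, smallest p 0.0286), 0 of the 7 genes called in all 7 lists passed 0.05, with p from 0.314 for *Kmt2d* to 0.857 for *Setd1b*. Of all 5035 gene starts 0.993% passed with a lower and 1.31% with a higher percentile in HFD-LSK, and of the 5489 starts that include RefSeq transcript starts 1.11% and 1.28%. None passed after Benjamini-Hochberg adjustment of these exact permutation p-values over all starts (lowest adjusted p = 0.957, unadjusted 116 of 5035 and 131 of 5489 passed). With a smallest p of 0.0286, an adjusted p under 0.05 would need most of the starts at that value. The adjusted result therefore does not show that the diets are alike. The largest difference among these 7 genes was at *Kmt2c*, 1.84 ± 1.16 (SD, n = 3) in HFD-LSK and 15.9 ± 25.0 (SD, n = 4) in LFD-LSK (exact permutation p = 0.571), and it was −1.62 instead of −14.1 points without LFD-LSK replicate 3. *Kmt2b* had 11.3 ± 17.1 (SD, n = 3) and 24.3 ± 20.2 (SD, n = 4) (exact permutation p = 0.4), a difference of −13.0 points that was −5.22 without LFD-LSK replicate 3 and −22.9 without HFD-LSK replicate 3. For *Kmt2d* the values were 28.6 ± 14.5 (SD, n = 3) and 38.5 ± 0.419 (SD, n = 4) (exact permutation p = 0.314), and the difference of −9.93 points was −4.18 without HFD-LSK replicate 1 and −18.1 without HFD-LSK replicate 2. Ranked by −log10 p instead of fold, *Kmt2d* was stronger in HFD-LSK by 22.8 points with no overlap (exact permutation p = 0.0286, the smallest the design gives), unadjusted, and 112 of the 5489 starts that include RefSeq transcript starts passed under that ranking. *Kmt2a*, *Setd1a*, *Setd1b*, and *Dpy30* differed by 3.21, 3.90, −1.79, and 0.844 points (HFD-LSK minus LFD-LSK), each less than the SD within either diet. The 3 genes called in 6 lists were not tested, and their differences were 19.2 points for *Wdr5*, −25.9 for *Ash2l*, and −6.01 for *Rbbp5* over the lists that have them. The *Rbbp5* difference turned to 15.1 at a −log10 q of at least 5, 15.5 with lists cut to the shortest, 2.78 without HFD-LSK replicate 2, and 2.64 without LFD-LSK replicate 1.

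Among the 5035 gene starts called in all 7 lists, the mean width was higher in HFD-LSK at 93.0%, with a median difference of 279 bp, while 3.75% passed 0.05 with a higher and 0% with a lower width. The mean width of HFD-LSK exceeded that of LFD-LSK at 9 of the 10 genes, from 107 bp at *Kmt2a* to 1200 bp at *Kmt2d*, and was 30.0 bp lower at *Ash2l*, and 0 of the 7 tested genes passed 0.05. Its direction turned at *Kmt2a* without HFD-LSK replicate 2 (−533 bp) or LFD-LSK replicate 4 (−226 bp), at *Dpy30* without LFD-LSK replicate 4 (−22.7 bp), and at *Setd1b* without LFD-LSK replicate 1 (−22.0 bp). *Kmt2d* had 2913 ± 1312 bp (SD, n = 3) in HFD-LSK and 1713 ± 1060 bp (SD, n = 4) in LFD-LSK (exact permutation p = 0.257). The difference at *Kmt2d* was 493 bp without HFD-LSK replicate 2. *Kmt2c* had 2995 ± 456 bp (SD, n = 3) and 2308 ± 428 bp (SD, n = 4), the lowest p of the set (exact permutation p = 0.171). Mean peak width of the whole list moved with these values, at 863 to 1333 bp in HFD-LSK and 605 to 1069 bp in LFD-LSK, and its part in the differences was not tested.

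The width percentile places each start within its own list. Over all starts its median difference was −1.89 points, and 0.755% passed with a lower and 1.45% with a higher width percentile in HFD-LSK. Of the 7 genes 0 passed, with p from 0.143 (*Kmt2a*, 3.22 ± 4.16 (SD, n = 3) against 0.577 ± 0.399 (SD, n = 4), exact permutation) to 0.971 (*Setd1b*). Over the 5 genes called at their 5′ ends in all lists, the median difference between the diets was −1.79 fold percentile points, 254 bp, and 0.924 width percentile points, each under the SD of the library medians (12.8 points, 494 bp, and 2.78 points).

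The rest of the H3K4 methylation machinery was read the same way, at any annotated start, and 36 genes in 5 groups were counted with the 10 above at their marked starts. Of these, 24 were called in all 7 lists, 10 in some, and 2 in none, while 22.3% of all coding genes were called in all 7 lists at any start. *Ash2l*, among those called in some, was counted by its gene-body peak, a rule not applied to other genes. Among 13 accessory subunits, 9 were called in all 7 lists. The 4 others were *Men1* (menin, the KMT2A and KMT2B partner, 5 lists), *Hcfc1* (host cell factor, 5 lists), *Wdr82* (6 lists), and *Bod1* (6 lists). The strongest accessory gene was *Paxip1*, which encodes the PTIP subunit of the KMT2C and KMT2D complexes, with a median fold percentile of 7.63 and a median width of 1308 bp. The weakest was *Hcfc1*, at 68.3 over its 5 lists, and *Tasp1*, the protease that cleaves KMT2A, had 43.0.

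Among 7 other SET-domain enzymes assigned to H3K4, 5 were called in all 7 lists, *Smyd3* in 5, and *Smyd1*, a muscle gene, in 0. The share of all coding genes called in all 7 lists, 22.3%, applies to the counts of this paragraph too. *Ash1l* was the strongest, with a median fold percentile of 5.98, and *Smyd2* the weakest, with 55.5. *Prdm9*, which marks recombination sites in germ cells, was called in 7 of 7 lists, with a median fold percentile of 25.2. Among 6 demethylases that remove H3K4 methylation, *Kdm5b*, *Kdm1a*, and *Kdm1b* were called in all 7 lists, *Kdm5a* and *Kdm5c* in 6 each, and the Y-linked *Kdm5d* in 0. *Kdm5a* had the strongest median fold percentile of this group, 28.7, and *Kdm5c* the weakest, 56.3, each over its 6 lists. No gene of these 3 groups passed 0.05 between the diets in fold percentile, width, or width percentile (exact permutation, lowest p = 0.0571, for *Hcfc2*, *Kdm6a*, and *Ash1l*). Of the marker genes, *Kit* alone passed, in width, by 1962 bp (exact permutation p = 0.0286, unadjusted), against the 3.75% of all starts given above.

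Of the 34 genes of the 5 groups with a call anywhere, LFD-LSK replicate 4 missed 8, LFD-LSK replicate 1 missed 4, HFD-LSK replicate 3 missed 1, and the other 4 lists missed 0. In these terms 33 of the 36 were called in all 3 HFD-LSK lists and 25 in all 4 LFD-LSK lists, against 38.6% and 23.9% of all coding genes. LFD-LSK replicates 4 and 1 held the smallest shares of coding genes, 31.1% and 35.4%. LFD-LSK replicates 2 and 3 held 45.7% and 43.9%, inside the HFD-LSK range of 42.0% to 52.5%. The misses in LFD-LSK fell in the 2 shortest lists (7447 and 6921 peaks), so diet and list length cannot be told apart in these counts.

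**Figure D5:**
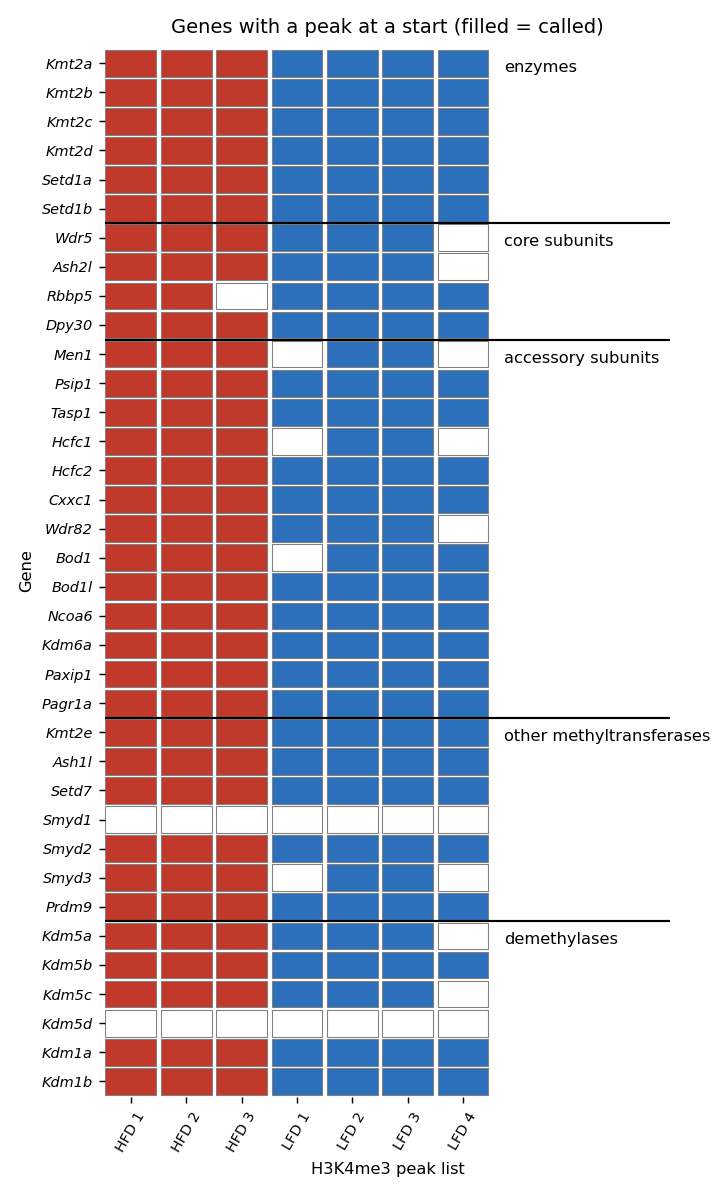
Calls (filled squares, red for HFD-LSK and blue for LFD-LSK) at the starts of 36 genes (y axis) of the H3K4 methylation machinery in the 7 peak lists (x axis). Open squares are genes without a peak, and apart from Rbbp5 and the 2 genes called in no list (Smyd1 and Kdm5d) they fall in LFD-LSK replicates 1 and 4.

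Fragments at the summit, recovered from the deposited fold and p of each peak, show the counts behind these values. *Kmt2a* had 113, 122, and 37 fragments in HFD-LSK and 120, 87, 47, and 32 in LFD-LSK. *Rbbp5* had 31 and 47 fragments in its 2 HFD-LSK lists, and 29, 31, 19, and 14 fragments in LFD-LSK. For the 32 fragments of *Kmt2a* in LFD-LSK replicate 4 the exact 95% Poisson interval was 21.9 to 45.2, and for the 14 of *Rbbp5* there it was 7.65 to 23.5, and these intervals, which cover counting error only, overlap slightly. Fragment counts follow the depth of each library and were not compared between diets.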

How the data were processed

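H3K4me3 CUT&Tag peak lists of 3 HFD-LSK and 4 LFD-LSK libraries were analyzed, grouped by their repository labels. The submitters' processing notes name Trim Galore, Bowtie2, Picard, MACS2, bedtools, HOMER, and featureCounts with build GRCm38, whereas the methods of the study name GRCm39 and SEACR. Versions are not given in the sources used here. Each list belongs to 1 H3K4me3 library. The study's methods define peaks against a matched IgG control, and any part of the IgG libraries in fold, p, and list length was not examined. The deposited columns are a fold (a ratio to the local background), −log10 p, −log10 q, and a score, all made by the authors, and the coordinates were read as GRCm38. The lowest −log10 p in a list was 5.01 to 5.08, so weaker regions cannot be seen. Fold depends on library depth, so genes were compared by rank within a list.

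Gene positions came from RefSeq (GRCm38.p6), which placed 45218 of 49943 genes. Strands came from the RefSeq promoter table for 27025 genes and by symbol from GENCODE for 18193. A peak counted when it lay within 1 kb of a gene's annotated 5′ end. RefSeq transcript starts and the *Ash2l* gene-body peak were added after the data were seen. The members and gene lists were chosen with earlier results of these data known. All 10 members are named, and of the compared lists those genes not called in all 7 lists, the lowest and highest by median fold percentile, and any with unadjusted p under 0.05. Some marker genes are not reported here.

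Differences between diets were tested by exact permutation of the library labels (35 assignments, two-sided, smallest p 0.0286), on all gene starts called in all 7 lists, with Benjamini-Hochberg adjustment over all of them. The study's own test used fragment counts, which were not used here. Its methods also name batch and pairing of samples as covariates, which the labels do not give. Summit fragments, and the fewest at a called summit, were recovered from the fold and p of each peak, assuming a MACS2 pseudocount of 1. Of the peaks, 97.2% to 100% were solved within a relative error of 0.0001, against 1.2% to 1.6% at a wrong scale. The recovery of summit fragments and the permutation test of fold percentiles were tried on simulated data, and the other steps were not. No 2 lists shared more than 0.107% of identical intervals, so each was used as a separate library. Alternatives were a −log10 q of at least 5, lists cut to the 6921 strongest peaks, windows of 500 bp and 3 kb, ranks by −log10 p, rank instead of percentile, the peak nearest the start, the single strongest peak, any RefSeq start (chosen after seeing the data), leaving out each library, and pairing by replicate number. Python 3.11.15, numpy 2.4.6, pandas 2.3.3, scipy 1.17.1, and matplotlib 3.10.9 were used.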

Additional observations from a re-analysis of the deposited data

Results flagged for a closer look

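Among 24 sets of 4 LFD-LSK values tested, 5 held a library whose gap to the nearest of the others, divided by the range, exceeded Dixon's 95% value for 4 samples. Chance gives about 1 in 20, and the measures of 1 gene are not independent. *Kmt2a* was 1899 bp wide in LFD-LSK replicate 4, against 3171 to 3344 bp in the other LFD-LSK libraries. *Kmt2c* had a fold percentile of 53.2 in LFD-LSK replicate 3, against 1.60 to 6.36. *Kmt2d* had a width percentile of 75.0 in LFD-LSK replicate 1, against 1.81 to 7.51, and *Setd1b* one of 16.5 in the same library, against 1.38 to 3.33. *Dpy30* had a width percentile of 77.2 in LFD-LSK replicate 4, against 42.6 to 47.4. LFD-LSK replicates 1 and 4, which hold 4 of the 5 values, have the shortest lists (7447 and 6921 peaks), whose part in these values was not tested.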

How the results depend on the processing

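No gene passed 0.05 in the report's settings, and of 293 tested alternative values 1 did, *Kmt2d* ranked by −log10 p (−22.8 points, exact permutation p = 0.0286). The 5 genes called in all lists were 4 at a −log10 q of at least 5 and with lists cut to the shortest, 5 to 7 with other windows or starts, and 5 or 6 without any 1 library. Differences are HFD-LSK minus LFD-LSK. The median over these genes was 580 ranks instead of −1.79 percentile points by rank, and without any 1 library it ran from −8.05 to 3.94 points in fold percentile, 127 to 596 bp in width, and 0.0233 to 2.50 points in width percentile. Gene starts past 0.05 were 116 in fold percentile, 189 in width, and 111 in width percentile, but 68, 108, and 61 at a −log10 q of at least 5 and 50, 67, and 38 with lists cut to the shortest, where 2936 and 2244 starts were left to test instead of 5035. Of 373 alternative values for single genes, 41 changed direction and the cause was not tested. Of these, 5 belong to genes without a test, the 4 given for *Rbbp5* in the report and the *Wdr5* width percentile, which was 3.51 without LFD-LSK replicate 1 instead of −18.6. By −log10 p, *Kmt2a* was −1.91 and *Dpy30* −7.16 fold percentile points. At a −log10 q of at least 5, *Setd1a* was −0.845 and *Dpy30* −1.92 points. With lists cut to the shortest *Kmt2d* was 0.476 points, and by rank *Kmt2d* was 32.9 and *Setd1b* 1748 ranks. The width percentile of *Kmt2a* was −2.28 with the 500 bp window and −2.08 for the single strongest peak, and that of *Setd1b* −0.101 with the 3 kb window. Each of the 7 libraries, when left out, turned at least 1 of 25 values. For the tested genes the ranges were −0.0795 to 7.61 points for *Kmt2a*, −5.58 to 15.0 for *Setd1a*, −19.7 to 11.5 for *Setd1b*, and −1.77 to 4.23 for *Dpy30* in fold percentile, −533 to 692 bp for *Kmt2a*, −22.0 to 565 bp for *Setd1b*, and −22.7 to 228 bp for *Dpy30* in width, and −1.46 to 0.194 for *Kmt2c*, −3.19 to 14.8 for *Setd1a*, −1.22 to 3.84 for *Setd1b*, and −4.60 to 11.5 for *Dpy30* in width percentile. Such fits cannot pass 0.05, their smallest p being 0.0667 or 0.1, nor can 3 pairs (0.25). Same-numbered libraries correlated at 0.180, 0.0166, and 0.0371 in their deviations from the diet means. Differently numbered libraries of the 2 diets correlated at −0.148 to 0.0482. The numbers were not taken as pairs in the main test. With the replicate block no gene passed, and *Kmt2a* width was −226 bp, *Dpy30* width −22.7 bp, *Setd1b* fold percentile 4.18, and *Setd1b* width percentile −0.565. A weak peak below a library's calling limit is missing whatever the setting, the *Ash2l* gene-body peak was not recomputed, and ranks of peaks with few fragments tie.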
